A study of Mus musculus with 7 samples.

Results

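Ifi44, Ifi204, H2-T10 and Trim12a are 4 immune genes of the 13701 genes counted in ventricles of mouse embryos at E11.5. They were chosen from the counts themselves, because each was close to on in some libraries and off in others, so their levels and differences are given as a description, without a test. Hand1 knockout ventricles (2 libraries) carried 1 Cre allele at Nkx2-5 and 2 floxed Hand1 alleles (Nkx Cre +/-; H1flox/flox). Cre controls (3 libraries) carried the Cre allele and wild-type Hand1 (Nkx Cre +/-; wt), and flox controls (2 libraries) carried 2 floxed Hand1 alleles and no Cre (Nkx Cre wt; H1flox/flox). Every sample was labelled as mixed background, and the Nkx2-5 locus drives Cre in cardiac progenitors and myocardium, not in every cell of the ventricle. Each library also has an identifier in its label. It starts with NT in both knockout libraries and in flox control replicate 2 (NT-1, NT-6 and NT-7), whereas flox control replicate 1 is 310-4 and the Cre controls are 10R-2, 83-1 and 10R-6. The labels explain neither the identifiers nor litters, so the spread between libraries may be technical or biological, and NT identifier, litter and any sub-strain cannot be told apart. Total counts per library lay between 18975283 and 28346700.

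Type I interferons signal through the IFNAR receptor and the JAK kinases to transcription factors that bind interferon-stimulated response elements in the promoters of antiviral genes. Ifi44 encodes a cytoplasmic interferon-induced protein, and Ifi204 encodes p204, a nucleic acid sensor of the p200 (HIN-200) family that acts through STING. In mouse embryonal carcinoma cells p204 is also known to be needed for the formation of beating cardiac myocytes. H2-T10 is a non-classical MHC class I gene of the H2-T region, whose product is recognised by some gamma-delta T cells, and Trim12a is a mouse relative of TRIM5, a retroviral restriction factor known from primates. The p200 cluster, the H2-T region and the Trim5/Trim12/Trim30 cluster all differ in gene content or sequence between inbred mouse strains.

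The promoters are shown because Ifi44 is known for its interferon induction, and because Trim12a and its neighbour Trim12c had nearly the same promoter and different counts. The windows run from 250 bases before to 50 bases after the annotated start, in the gene's direction (RefSeq, GRCm38.p6). All 3 lie on the minus strand, at chr3:151749861-151750160 for Ifi44, chr7:104315446-104315745 for Trim12a and chr7:104353300-104353599 for Trim12c. Capitals mark matches to GAAANNGAAA or its reverse complement TTTCNNTTTC, the core of the interferon-stimulated response element.
Ifi44: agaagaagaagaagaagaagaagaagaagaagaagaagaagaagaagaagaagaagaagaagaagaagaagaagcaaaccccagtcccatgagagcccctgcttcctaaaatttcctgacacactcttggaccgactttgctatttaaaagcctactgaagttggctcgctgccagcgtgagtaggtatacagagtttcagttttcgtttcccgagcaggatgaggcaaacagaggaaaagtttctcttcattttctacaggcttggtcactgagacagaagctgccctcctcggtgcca
Trim12a: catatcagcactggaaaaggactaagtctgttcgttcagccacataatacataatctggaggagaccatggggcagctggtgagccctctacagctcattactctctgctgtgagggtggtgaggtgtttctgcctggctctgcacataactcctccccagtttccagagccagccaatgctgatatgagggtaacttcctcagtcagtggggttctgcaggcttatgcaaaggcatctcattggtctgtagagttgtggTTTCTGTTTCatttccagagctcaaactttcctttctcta
Trim12c: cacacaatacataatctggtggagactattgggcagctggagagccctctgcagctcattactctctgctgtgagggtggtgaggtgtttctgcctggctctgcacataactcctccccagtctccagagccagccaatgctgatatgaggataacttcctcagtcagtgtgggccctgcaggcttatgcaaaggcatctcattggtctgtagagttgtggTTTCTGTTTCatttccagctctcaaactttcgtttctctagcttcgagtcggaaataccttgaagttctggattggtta
The Trim12a and Trim12c windows both held TTTCTGTTTC, and 247 of their 260 aligned bases were identical. The match began at position 11 in Trim12a and at position -29 in Trim12c, counting the RefSeq start base as 1. GENCODE M21 places the start of Trim12a at 104315466, downstream of the match. The Ifi44 window held no match to these letters. Only exact matches were searched, so an element with other letters or spacing would be missed. The core was found in 1131 of 32851 promoter windows (3.44%). By gene, taking a match in any of its windows, it was found for 357 of 10375 counted genes with a window (3.44%). In a list of interferon-stimulated genes it was found for 33 of the 63 genes with a window (52.4%). Only 2 of the 4 genes, Ifi44 and Trim12a, had a window.

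Ifi44 was high in the 3 NT libraries, whichever their genotype, and near 0 in the other 4. The gene is on the minus strand of chromosome 3 (mm10, 151730923 to 151749959) and was counted over 8 exon blocks of 2908 bases in all. It had 120 and 128 counts in the knockout libraries, 1, 1 and 3 counts in the Cre controls, and 7 and 104 counts in flox control replicates 1 and 2. In CPM (read counts scaled to library size by the trimmed mean of M-values, TMM), this was 4.19 and 7.71 in the knockouts, 0.0384, 0.0358 and 0.113 in the Cre controls, and 0.273 and 3.89 in the flox controls. The means were 5.95 ± 2.49 CPM in knockouts (SD, n = 2), 0.0625 ± 0.0439 CPM in Cre controls (SD, n = 3) and 2.08 ± 2.56 CPM in flox controls (SD, n = 2). The SD of the flox controls was above their mean, as their 2 libraries fell on either side of the split. In the knockouts the summed count per total was 88.2 times that of the Cre controls (95% interval 37.3 to 274, counting error only) and 2.58 times that of the flox controls (2.06 to 3.26). Over the 3 NT libraries it was 43.2 times that of the other 4 (24.4 to 84.5). The lowest NT library was 14.3-fold above the highest of the others, and the 95% counting intervals of knockout replicate 1 and flox control replicate 2 overlapped. Below the split, neighbouring libraries overlapped in their intervals.

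Ifi204 showed the same split by identifier, with a wide spread among the 3 libraries in which it was high. It is on the minus strand of chromosome 1 (173747294 to 173766919) and was counted over 9 exon blocks of 2295 bases. It had 51 and 211 counts in the knockouts, 4, 4 and 10 in the Cre controls, and 7 and 223 in flox control replicates 1 and 2. The levels were 1.78 and 12.7 CPM in the knockouts, 0.154, 0.143 and 0.377 CPM in the Cre controls, and 0.273 and 8.35 CPM in the flox controls. Both knockouts were above every Cre control, but the knockouts and the flox controls overlapped, and the flox controls reached into the range of the Cre controls. The intervals of the 3 NT libraries were separate from each other, with knockout replicate 2 highest and knockout replicate 1 lowest. The group means were 7.24 ± 7.73 CPM in knockouts (SD, n = 2), 0.225 ± 0.132 CPM in Cre controls (SD, n = 3) and 4.31 ± 5.71 CPM in flox controls (SD, n = 2). Summed counts per total in the knockouts were 25.9 times those of the Cre controls (95% interval 16.1 to 44.3, counting error only). In the NT libraries they were 28.6 times those of the other 4 libraries (19.1 to 44.6). The gap between the lowest NT library and the highest other library was 4.72-fold.

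H2-T10 was the lowest of the 4 genes per exon length in each of the 3 NT libraries and had at most 1 count in every other library. It is on the minus strand of chromosome 17 (36115871 to 36121444), over 10 exon blocks of 2897 bases, and GENCODE M21 annotates it as a polymorphic pseudogene. It had 35 and 42 counts in the knockouts, 0, 0 and 1 in the Cre controls, and 1 and 90 in flox control replicates 1 and 2. The levels were 1.22 and 2.53 CPM in the knockouts, 0, 0 and 0.0377 CPM in the Cre controls, and 0.0390 and 3.37 CPM in the flox controls. A count of 0 in Cre control replicates 1 and 2 allows up to 0.115 and 0.107 CPM (3 counts each). Flox control replicate 2, which has no Cre and had 1272 counts of Hand1, was the highest of the 7 libraries. Its interval overlapped that of knockout replicate 2. Summed counts per total in the knockouts were 0.979 times those of the flox controls (95% interval 0.713 to 1.34, counting error only). The flox controls held 1 and 90 counts, a spread that this interval does not cover. In mean log2 CPM the same difference was 1.53, and -0.90 to 3.97 with each library left out in turn. Summed counts per total in the NT libraries were 123 times those of the others. That interval was 33.5 to 1025, since the others held 2 counts together. With libraries under 3 counts set to 3 counts, the lowest NT library was 10.4-fold above the highest other library.

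Trim12a split by the Hand1 allele and not by NT against other identifiers. No identifier start occurred on both sides of that split, so allele and identifier cannot be told apart here. It is on the minus strand of chromosome 7 (104299897 to 104315495), over 8 exon blocks of 1525 bases. It had 81 and 109 counts in the knockouts, no count in any of the 3 Cre controls, and 177 and 130 counts in flox control replicates 1 and 2. The levels were 2.83 and 6.56 CPM in the knockouts, 0 CPM in each Cre control, and 6.90 and 4.87 CPM in the flox controls. All 4 libraries with floxed Hand1 were therefore above the 3 with wild-type Hand1, and knockouts and flox controls overlapped. With the Cre controls set to 3 counts each, the knockout mean was at least 41.9-fold higher than that of the Cre controls, and the Cre control mean was at least 52.6-fold lower than that of the flox controls. The lowest floxed library was 24.5-fold above that limit. Hand1 lies on chromosome 11, not on the chromosome of Trim12a. No group of the study separates floxed Hand1 from whatever else its carriers shared.

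**Figure D1:**
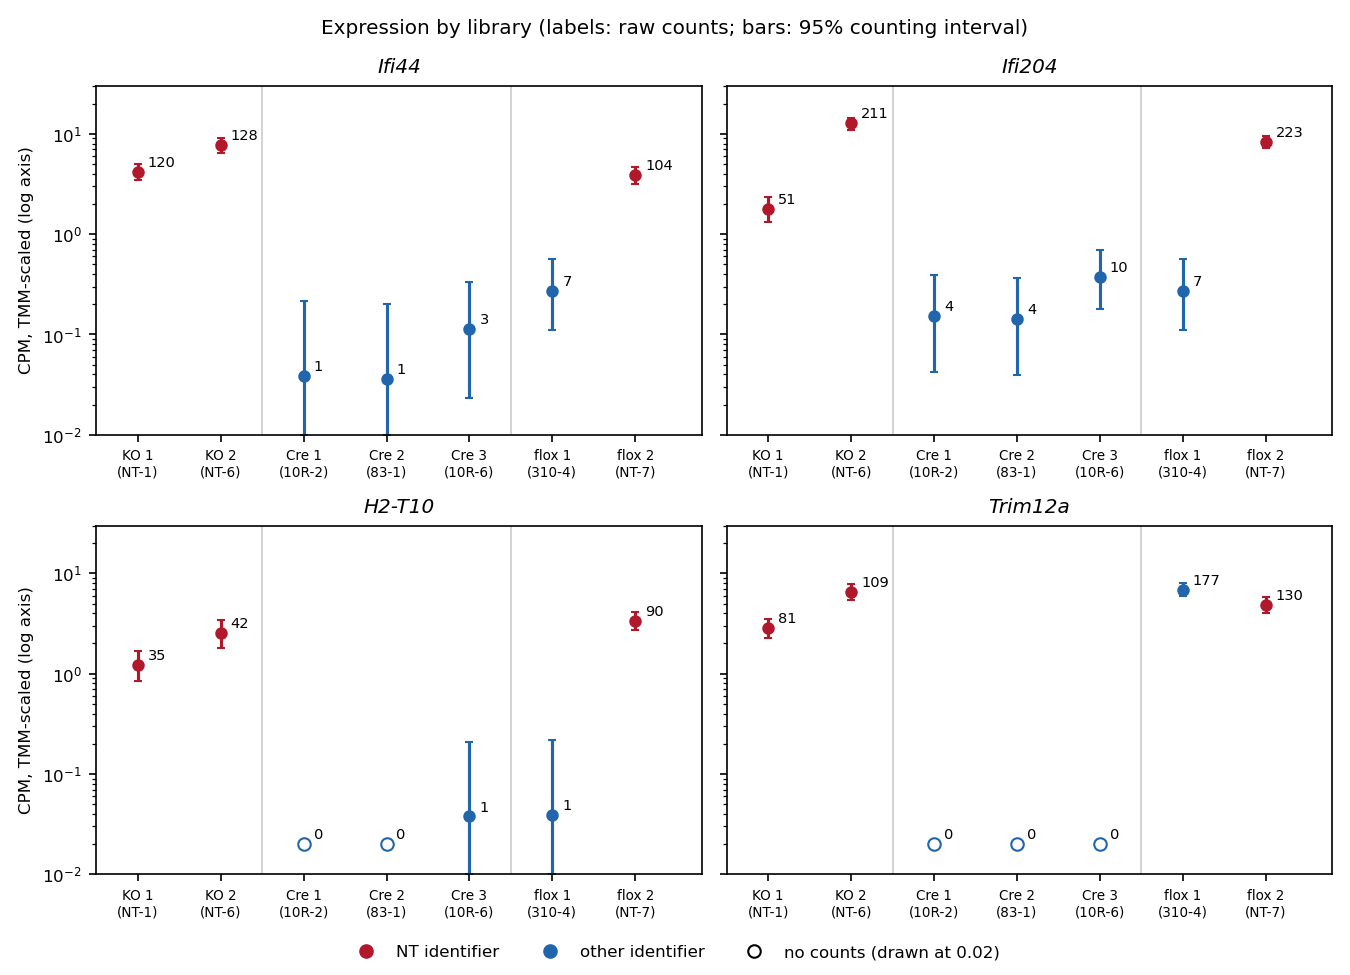
Level of each of the 4 genes in the 7 libraries, in CPM on a log axis, with raw counts beside the points and 95% counting intervals as bars; KO is the Hand1 knockout, Cre and flox the 2 control genotypes. Ifi44, Ifi204 and H2-T10 were high in the red libraries (NT-1, NT-6 and NT-7) and low in the blue ones, whereas Trim12a had counts in every library but the 3 Cre controls.

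Per kilobase of exon the 4 genes were weakly expressed even where they were on. Ifi44 reached 1.44 and 2.65 CPM per kb in the knockouts and 1.34 CPM per kb in flox control replicate 2, above 17.7%, 26.1% and 15.2% of the genes in these libraries. H2-T10 reached 0.422 and 0.873 CPM per kb in the knockouts, and Trim12a 1.85 and 4.30 CPM per kb. The order of Ifi204 and Trim12a changed between libraries: Ifi204 was lower in knockout replicate 1, with 0.776 CPM per kb, and higher in knockout replicate 2, with 5.54 CPM per kb.

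The authors' deposited table gives log2 fold changes of the knockout over the Cre controls of 6.44 for Ifi44, 4.95 for Ifi204, 6.72 for H2-T10 and 9.83 for Trim12a. Counted from the most raised gene downward, these rank 6, 10, 3 and 1 among all genes of the authors' deposited table. Lowered genes were not ranked by size beside them. The rank of Trim12a rests on a group at 0, so its fold change depends on the prior count and is no bound. On log2 CPM with a prior count of 2, the knockouts minus the Cre controls gave 5.40 for Ifi44, 4.09 for Ifi204, 4.36 for H2-T10 and 5.80 for Trim12a. The knockouts minus the flox controls gave 2.29, 1.5, 1.53 and -0.42 in the same order. Without flox control replicate 1 the values of Ifi204 and H2-T10 became -0.79 and -0.90. These comparisons share the knockout libraries, so their values are not independent.

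All 4 genes were higher in both knockouts than in every Cre control, a pattern of 16.4% of all genes. In both knockouts Ifi44 alone was above both flox controls (12.4% of all genes), and Ifi44, H2-T10 and Trim12a were lower in every Cre control than in both flox controls (17% of all genes). For H2-T10 this order rests on 1 count each in Cre control replicate 3 and flox control replicate 1, whose intervals overlapped. The genes were chosen on these values, so the counts are a description.

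The 4 genes varied together only in part. Over the 7 libraries, log2 CPM of Ifi44, Ifi204 and H2-T10 had pairwise Pearson r of 0.946 to 0.975, and each had r of 0.716 to 0.816 with Trim12a. The libraries form a high and a low cluster, so r mostly records that split. Within the high cluster the order differed by gene: Ifi44 and Ifi204 were highest in knockout replicate 2, and H2-T10 was highest in flox control replicate 2.

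Few genes separated these library sets by as wide a gap. A gap of at least 4-fold between the lowest library of one set and the highest of the other (at least 3 counts), a size chosen after the values were seen, was met by 6 genes higher in the NT libraries (0.0438% of all genes) and by 6 lower (0.0438%). It was met by 5 genes higher in the floxed libraries than in those with wild-type Hand1 (0.0365%) and by 0 lower (0%). Without a minimum gap, 285 genes did not overlap and were higher in the NT libraries (2.08%), and 610 were higher in the floxed libraries (4.45%). Ifi44, H2-T10 and Ifi204 were among the first 6 and Trim12a among the 5, as the choice of the genes fixes. The other 3 of the first 6 were Gm8801, A230056P14Rik and A930015D03Rik. Among the genes with the opposite pattern was 4930481A15Rik, a chromosome 19 locus with 0 counts in each knockout, 53, 100 and 93 in the Cre controls, and 41 and 0 in flox control replicates 1 and 2. Fgf23, the phosphate-regulating hormone, had 9 and 5 counts in the knockouts, 55, 50 and 51 in the Cre controls, and 39 and 6 in the flox controls. Eno2, the neuronal enolase, shared the pattern of Trim12a, with 1294 and 630 counts in the knockouts, 152, 178 and 159 in the Cre controls, and 720 and 1219 in the flox controls. The genes of this paragraph other than the 4 were named after their values were seen.

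**Figure D2:**
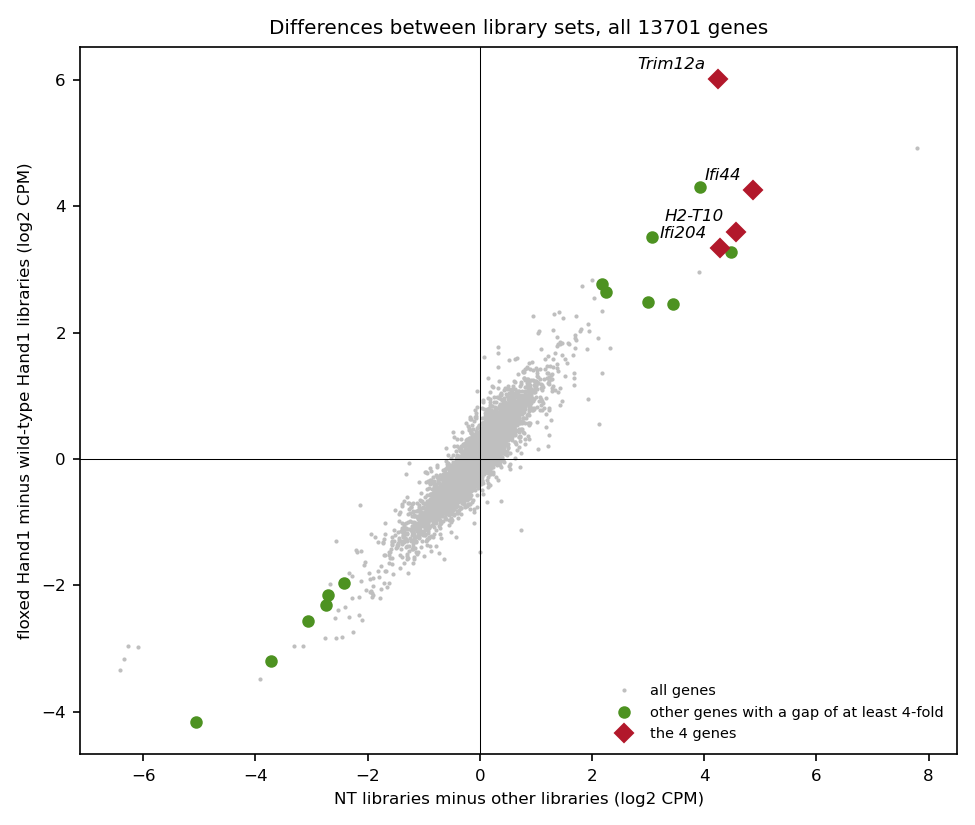
Difference in mean log2 CPM between NT and other libraries (x axis) and between libraries with floxed and wild-type Hand1 (y axis) for all genes; diamonds are the 4 immune genes and circles the other genes whose library sets were separated by at least 4-fold. The 4 genes lie at the upper right, with Trim12a at 4.24 on x and 6.01 on y; the isolated grey points are Xist at the right and 4 Y-linked genes at the left, which follow embryo sex.

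Embryo sex moved in part with the identifier. Xist, transcribed from the inactive X, had 13970 and 27200 counts in the knockouts, 11, 19741 and 11 in the Cre controls, and 31 and 21387 in flox control replicates 1 and 2. The 3 NT libraries and Cre control replicate 2 thus had the Xist counts of female embryos. Cre control replicate 2 had 1 count of Ifi44, 4 of Ifi204 and 0 of H2-T10. The part of sex in these levels was not tested. Knockout replicate 2 was the least like the rest, with a highest correlation of 0.927 with any other library over all genes, against 0.977 or more for the others. The label of Hand1 loss held, with 37 and 19 Hand1 counts in the knockouts, 2465, 1852 and 2189 in the Cre controls, and 875 and 1272 in the flox controls. The flox controls were also below the Cre controls, at 34.1 and 47.6 CPM against 66.3 to 94.7 CPM, and the reason was not tested.

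No gene of a wider list of interferon-stimulated genes, which does not include the members, passed the test with all 7 libraries. Of 79 listed genes, 48 were tested, and 0 were called by edgeR's quasi-likelihood test (Benjamini-Hochberg adjusted p below 0.05) or by DESeq2. Over all genes edgeR called 2 genes of 13695 in the knockouts against Cre controls (0.0146%), 2 in the knockouts against flox controls (0.0146%) and 0 in Cre against flox controls (0%). DESeq2 called 4.05%, 2.21% and 0.533% of all genes in the same comparisons. At an unadjusted p below 0.05, 10 of the 48 passed against Cre controls, 8 against flox controls and 7 between the controls, beside 15.4%, 8.36% and 3.13% of all genes. The median log2 fold change of the 48 was -0.05 in knockouts against Cre controls, -0.36 in knockouts against flox controls and -0.28 in Cre against flox controls, beside medians of all genes of -0.00, 0.02 and 0.00. Trafd1, Ifitm2 and Adar had the highest mean CPM of the list. Trafd1, a feedback regulator of innate signalling, had 60.2 and 34.4 CPM in the knockouts, 84.6, 80.6 and 77.5 CPM in the Cre controls, and 62.1 and 74.5 CPM in the flox controls, without passing the test. Ifitm2, which blocks virus entry, had 61.0 and 66.4 CPM in the knockouts, 55.1 to 57.4 CPM in the Cre controls, and 62.6 and 56.8 CPM in the flox controls. Adar, the double-stranded RNA editing enzyme, had 41.0 and 25.4 CPM in the knockouts, 45.7 to 50.2 CPM in the Cre controls, and 47.0 and 51.6 CPM in the flox controls. For these genes no split by identifier is seen.

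The count of called interferon-stimulated genes depended on the library left out. Without knockout replicate 1, edgeR called 24 of the 48 against Cre controls, 15 higher and 9 lower, beside 64.3% of all genes, and 15 against flox controls, 4 higher and 11 lower, beside 55.1% of all genes. Knockout replicate 2 is then the 1 knockout library, and its spread is taken from the control groups. Without knockout replicate 2, DESeq2 called 7 against flox controls, all lower in knockout replicate 1, the 1 knockout library left: Eif2ak2, Gbp4, Gbp9, Parp9, Samd9l, Slfn5 and Slfn9. In that fit 7.13% of all genes were called. With the control libraries alone, edgeR called Samd9l lower in Cre controls (adjusted p = 0.0295, beside 0.409% of all genes called), against an adjusted p of 0.999 in the fit of all 7 libraries. Samd9l, an antiviral translation inhibitor, had 2.13 and 9.33 CPM in the knockouts, 2.61, 1.83 and 2.60 CPM in the Cre controls, and 7.14 and 7.75 CPM in the flox controls.

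Between NT and other libraries the 48 genes had a median difference of 0.03 (log2 CPM), from -0.74 for Trex1, a DNA exonuclease, to 1.29 for Slfn2, a Schlafen family member. Of the 48, 1 was higher and 1 lower without overlap (2.08% and 2.6% of all genes), and 0 reached a 4-fold gap. Iigp1, an interferon-inducible GTPase, was high in 1 library alone, with 528 counts in Cre control replicate 3 against 25 to 90 in the other 6. That library had 3 counts of Ifi44.

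**Figure D3:**
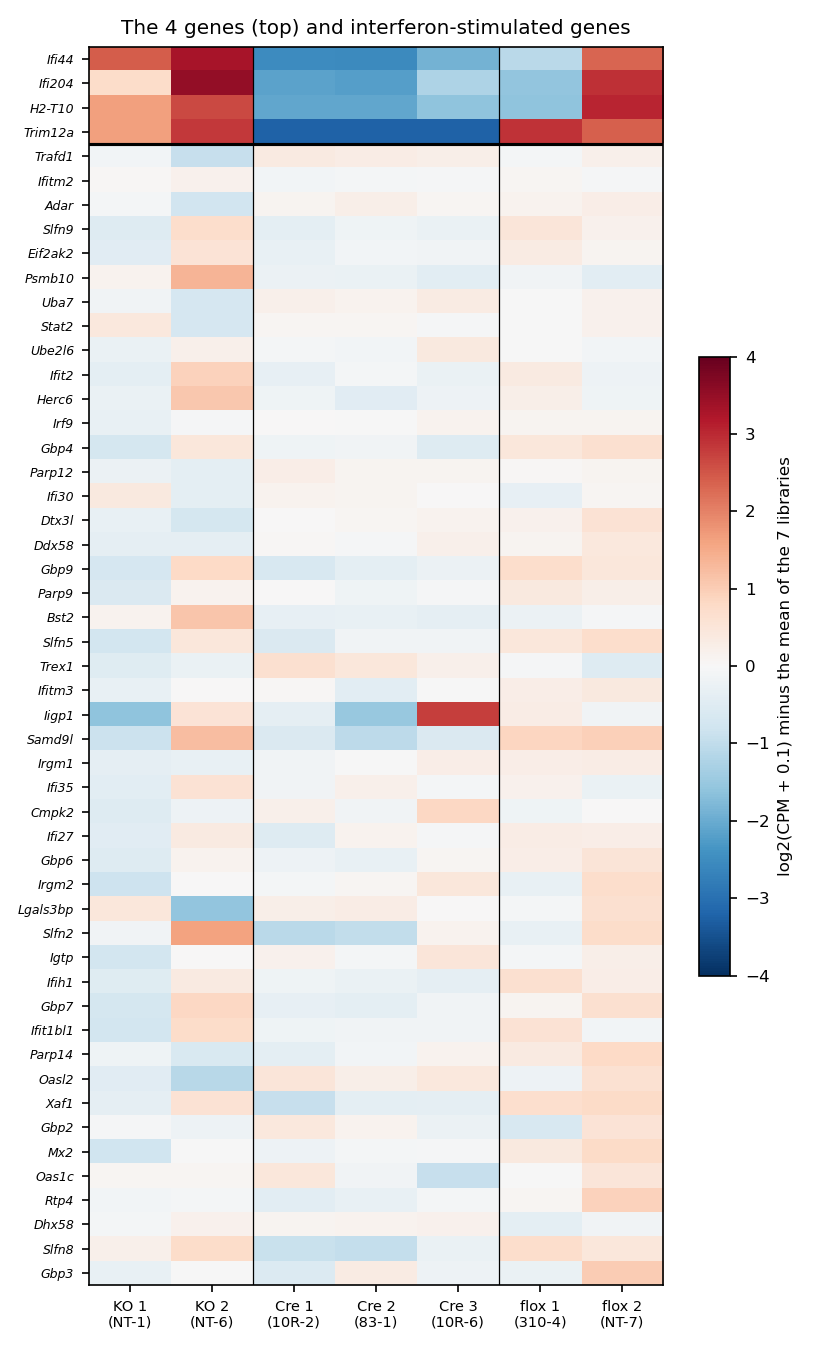
Level of the 4 immune genes (top rows) and other interferon-stimulated genes of the list ordered by mean CPM, as log2(CPM + 0.1) minus the mean of each gene over the 7 libraries. The 4 top rows show the contrast between libraries, and 0 of the rows below reach a 4-fold gap between NT and other libraries; Iigp1 stands out in Cre control replicate 3.

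The receptors and signalling components of the pathway were present in every library. All 20 listed genes were tested and 0 were called by edgeR or DESeq2 in any comparison. At an unadjusted edgeR p below 0.05, 1 passed in knockouts against Cre controls, beside 15.4% of all genes. In knockouts against flox controls and between the controls 0 passed, beside 8.36% and 3.13% of all genes. Ifnar1, a chain of the type I receptor, had 86.4 and 75.6 CPM in the knockouts, 95.8, 96.7 and 108 CPM in the Cre controls, and 98.8 and 107 CPM in the flox controls. The kinase Jak1 had 162 and 71.3 CPM in the knockouts, 160, 168 and 161 CPM in the Cre controls, and 129 and 166 CPM in the flox controls. Ifngr2, a chain of the interferon gamma receptor, had 94.9 and 185 CPM in the knockouts, 88.6 to 97.5 CPM in the Cre controls, and 103 and 89.3 CPM in the flox controls. In Jak1 and Ifngr2 it was knockout replicate 2 that stood apart, and not the NT libraries as a set.

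Of the 18 listed p200 family genes, 3 were in the table, and the 2 besides Ifi204 are its nearest neighbours in it. Aim2, the inflammasome sensor of cytosolic DNA, had 238 and 285 counts in the knockouts, 121, 95 and 122 in the Cre controls, and 272 and 339 in the flox controls. Ifi202b, a p200 gene known to be expressed in some strains and silent in C57BL/6, had 3 and 19 counts in the knockouts, 0 in every Cre control, and 15 and 16 in the flox controls. Both were thus lowest in the Cre controls, and flox control replicate 1 was on the high side, unlike for Ifi204. DESeq2 called both higher in knockouts than in Cre controls (adjusted p = 0.00261 for Aim2 and 0.00532 for Ifi202b, beside 1.59% of all genes called higher). It called both lower in Cre than in flox controls (adjusted p = 0.0377 and 0.0261, beside 0.394% called lower). edgeR called neither gene in either comparison, with adjusted p-values of 0.222 and 0.324 against Cre controls and 0.893 and 0.999 between the controls. At an unadjusted edgeR p below 0.05 both genes passed in these comparisons, beside 15.4% and 3.13% of all genes. Neither passed in knockouts against flox controls, beside 8.36% of all genes. Aim2 differed by 1.61 (log2) in knockouts against Cre controls and by -1.46 in Cre against flox controls in DESeq2. Without Cre control replicate 1, 2 or 3 the adjusted p of Aim2 against Cre controls became 0.0515, 0.0984 and 0.0631. For Ifi202b it became 0.0523, 0.0533 and 0.0597, and 0.390 without knockout replicate 2. Between the controls, leaving out any 1 of the 5 control libraries ended the DESeq2 call of both genes, with adjusted p from 0.443 to 1.00 for Aim2 and from 0.224 to 0.596 for Ifi202b. With the control libraries alone edgeR called Aim2 (adjusted p = 0.0299).

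Among MHC class I genes, 8 of 29 were in the table, and 0 of the 7 besides H2-T10 were called by edgeR or DESeq2. H2-K1, a classical class I gene, had 13.2 and 5.90 CPM in the knockouts, 7.80, 7.06 and 6.94 CPM in the Cre controls, and 8.11 and 17.2 CPM in the flox controls. H2-D1, also classical, had 8.17 and 3.79 CPM in the knockouts, 4.00, 2.65 and 3.32 CPM in the Cre controls, and 2.57 and 12.6 CPM in the flox controls. Both were highest in NT-7 and NT-1, while knockout replicate 2 (NT-6) lay below Cre control replicate 1. H2-T24, 110 kb from H2-T10, had 48 and 63 counts in the knockouts, 15, 22 and 38 in the Cre controls, and 19 and 99 in the flox controls, so the NT libraries were above the others with a narrow gap. H2-T23, the nearest gene of the table on that side, had 12 and 10 counts in the knockouts, 11 to 26 in the Cre controls, and 21 and 20 in the flox controls. Class I antigen processing genes, 11 of 12 tested, had 0 calls by edgeR or DESeq2. At an unadjusted edgeR p below 0.05, 1 of the 7 class I genes passed in knockouts against flox controls and 0 in the other comparisons. Of the 11 processing genes 0 passed in any comparison. The shares of all genes were 15.4% in knockouts against Cre controls, 8.36% against flox controls and 3.13% between the controls. Canx, Calr and Pdia3, chaperones of class I assembly, were the most abundant of these, with Canx between 744 and 904 CPM in the 7 libraries.

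Of 16 TRIM genes listed, 10 were in the table, and the cluster around Trim12a varied by gene. Of the 9 other than Trim12a, 1 passed at an unadjusted edgeR p below 0.05 in each comparison. Over all genes 15.4% passed in knockouts against Cre controls, 8.36% in knockouts against flox controls and 3.13% between the controls. Trim12c, with its start 38.9 kb from that of Trim12a and a known activator of interferon and NF-kappaB signalling in mouse, had 242 and 609 counts in the knockouts, 538, 501 and 655 in the Cre controls, and 716 and 614 in the flox controls. It was therefore expressed in the Cre controls, where Trim12a had no count. Trim34a, on the other side of Trim12a, had 31 and 24 counts in the knockouts, 11, 23 and 20 in the Cre controls, and 64 and 70 in the flox controls. DESeq2 called Trim34a lower in Cre than in flox controls (log2 -1.93, adjusted p = 0.00141), beside 0.394% of all genes called lower. edgeR did not call it (adjusted p = 0.672). Leaving out any 1 of the 5 control libraries ended that call, with adjusted p from 0.0861 to 1.00. Without knockout replicate 2, DESeq2 called Trim12c and Trim68 lower in knockout replicate 1, the 1 knockout library left, than in Cre controls (beside 3.35% of all genes called) and than in flox controls (beside 7.13%). Trim68 had 13.1 and 26.5 CPM in the knockouts, 25.6, 24.3 and 23.4 CPM in the Cre controls, and 21.5 and 21.7 CPM in the flox controls.

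**Figure D4:**
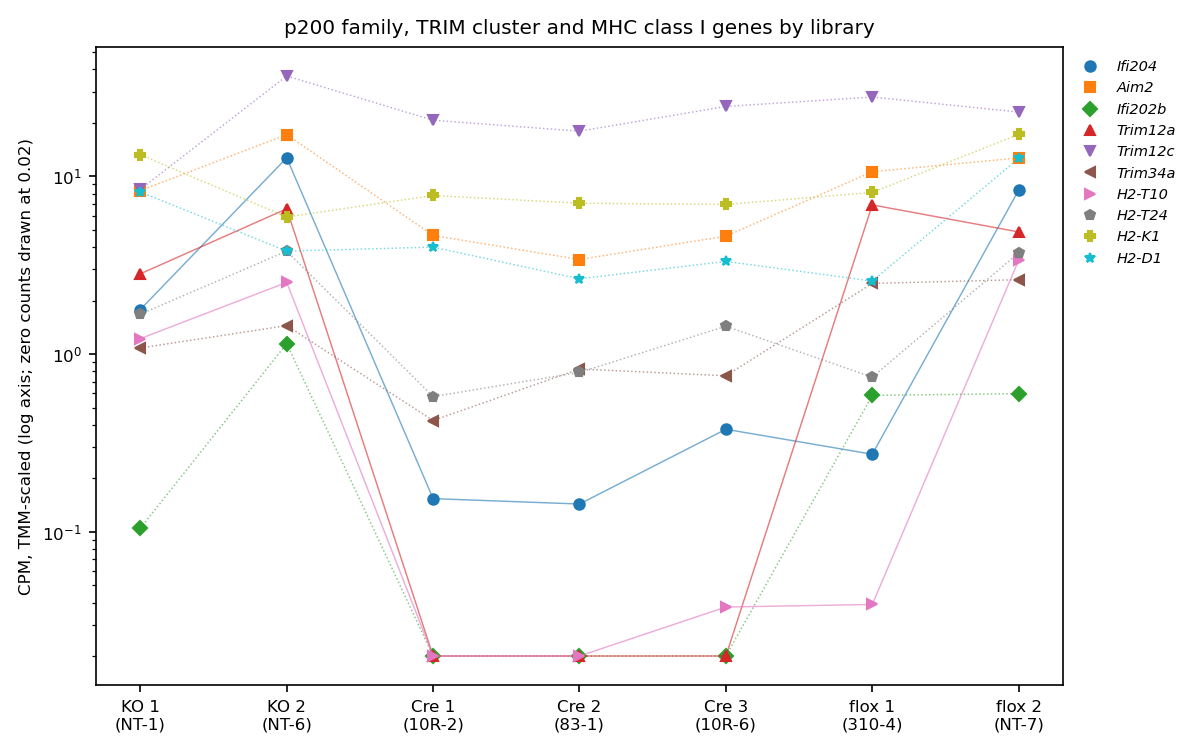
Level of Ifi204, Trim12a and H2-T10 (solid lines) with relatives from the p200, TRIM and MHC class I lists (dotted lines) in the 7 libraries, in CPM on a log axis; lines only join points of 1 gene. Aim2, Ifi202b and Trim12a were lowest in the 3 Cre controls, Trim12c was not, and Ifi204 and H2-T10 were low in flox control replicate 1 as well.

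Most genes around the 4 loci did not share the split of their member. Within 1 Mb of Ifi44 the table holds 11 genes, 0 of them higher in the NT libraries without overlap, with differences from -0.21 to 0.47 (log2 CPM). Its flanking genes Adgrl4, an endothelial adhesion receptor, and Ptgfr, the prostaglandin F receptor, had NT minus other differences of 0.04 and 0.26. Within 1 Mb of H2-T10, 4 of 45 genes were higher in the NT libraries without overlap, beside 2.08% of all genes, and 2 of them reached a 4-fold gap. These 2 were Gm8801 and A930015D03Rik. The median NT minus other difference of the 45 was -0.07, and no difference between loci was tested. Gm8801, annotated as an unprocessed pseudogene 169 kb away, had 54 and 20 counts in the knockouts, 0, 1 and 0 in the Cre controls, and 0 and 74 in the flox controls. A930015D03Rik, an antisense gene that overlaps H2-T24, H2-T23 and the end of H2-T22, had 59 and 88 counts in the knockouts, 8, 6 and 10 in the Cre controls, and 12 and 80 in the flox controls. Without stated strand use its reads cannot be told apart from those of the genes it overlaps. Of the 6 genes around Ifi204 and of the 6 around Trim12a, 0 were higher in the NT libraries without overlap. Higher in the floxed libraries without overlap were 1 of 11 genes around Ifi44, 2 of 6 around Ifi204, 4 of 45 around H2-T10 and 1 of 6 around Trim12a, beside 4.45% of all genes.

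**Figure D5:**
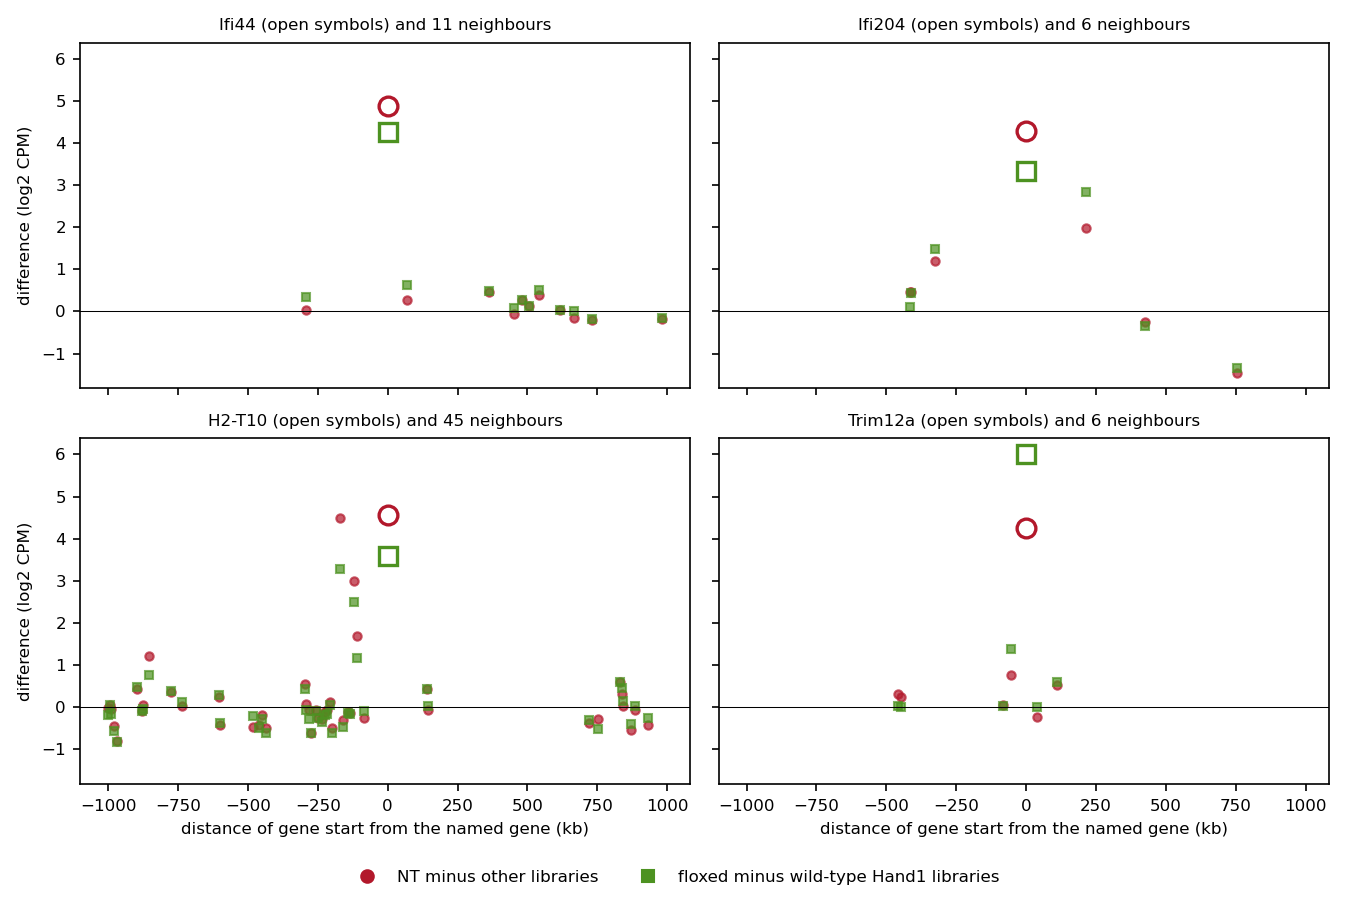
Difference in mean log2 CPM of the table's genes within 1 Mb of each of the 4 genes, between NT and other libraries (circles) and between floxed and wild-type Hand1 libraries (squares), by distance between gene starts in kb; open symbols are the 4 genes. The neighbours of Ifi44 lie near 0, whereas Gm8801 lies level with H2-T10, at 4.48 and 4.56 (NT minus other).

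Counting may have shared reads between near-identical copies for 3 of the genes. In GENCODE M21 transcripts, 30.2% of the 50-base windows of Ifi204 also occur in other genes, chiefly Ifi211 (23.2%) and Mndal (8.5%). For H2-T10 the share was 41.6%, chiefly with H2-T22 (39.2%), and for Trim12a it was 23.5%, with Trim5 (17.9%) and Trim12c (8.3%). Ifi44 shared none. The part of shared reads in the levels of the other 3 genes was not tested. The genes Ifi211, Mndal, H2-T22 and Trim5 are not among the genes analysed here, so the levels of Ifi204, H2-T10 and Trim12a are uncertain to that extent.

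Of 13 genes known to differ between laboratory strains, 8 were in the table. Alad, the heme synthesis enzyme whose gene copy number varies between strains, had 135 and 122 CPM in the knockouts, 68.7, 62.9 and 68.1 CPM in the Cre controls, and 70.2 and 115 CPM in the flox controls. It was higher in each NT library than in any other. DESeq2 called Alad higher in knockouts than in Cre controls (log2 0.98, adjusted p = 0.0153), beside 1.59% of all genes called higher. edgeR did not call it (adjusted p = 0.270). Without Cre control replicate 1, 2 or 3 the DESeq2 adjusted p became 0.250, 0.311 and 0.305. Ifi202b was the other DESeq2 call of this list. At an unadjusted edgeR p below 0.05, 3 of the 8 genes passed against Cre controls, 2 against flox controls and 1 between the controls. Over all genes 15.4%, 8.36% and 3.13% passed in the same comparisons. Of the 8 genes, 1 was higher in the NT libraries without overlap (2.08% of all genes) and 0 were lower (2.6% of all genes). The part of genetic background in the levels of the 4 genes was not tested.

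The genes most like each of the 4 over the 7 libraries were picked by Pearson r of log2 CPM among 13168 genes. For Ifi44 they were Dph6, Rnd3 and Hdhd3, with r of 0.98 each. Hdhd3 had 8.55 and 7.59 CPM in the knockouts, 3.96, 4.01 and 4.49 CPM in the Cre controls, and 4.95 and 8.38 CPM in the flox controls, a smaller contrast than that of Ifi44. Hdhd3 lies 3.78 kb from Alad, so both belong to 1 locus. For Ifi204 they were H2-T10, Acss3 and H2-T24 (0.97, 0.97 and 0.96), and for H2-T10 they were Acss3, Clic5 and Ifi204 (0.98, 0.98 and 0.97). Acss3, a mitochondrial acyl-CoA synthetase, had 5.13 and 7.71 CPM in the knockouts, 1.54, 2.15 and 2.04 CPM in the Cre controls, and 2.22 and 6.81 CPM in the flox controls. For Trim12a they were Rgs9bp, Slc25a31 and Nmrk2 (0.98, 0.97 and 0.97). Slc25a31, an ADP/ATP carrier, had 32 and 45 counts in the knockouts, 7, 9 and 8 in the Cre controls, and 56 and 33 in the flox controls. Without knockout replicate 2, 1 of the 3 names was kept for Ifi44, Ifi204 and H2-T10 each and 0 for Trim12a. By Spearman correlation 1 name was kept for Ifi44 and 0 for each of the other 3 genes. High r was common, as the 20th best Pearson r was still 0.917 to 0.950 for the 4 genes. Ifi204 and H2-T10 were both chosen for their split between libraries, so their likeness to each other follows from that choice.

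Among leukocyte markers Lyz2 was higher in the 4 floxed libraries than in the 3 Cre controls, and the summed level of the others was not. The summed level of the 10 of 14 listed macrophage and leukocyte markers in the table was 33.9 and 45.3 CPM in the knockouts, 29.0 to 34.2 CPM in the Cre controls, and 71.7 and 59.0 CPM in flox control replicates 1 and 2. It was 33.9 to 59.0 CPM in the NT libraries and 29.0 to 71.7 CPM in the others. Lyz2, the lysozyme of myeloid cells, led the list, with 384 and 497 counts in the knockouts, 207, 227 and 153 in the Cre controls, and 1306 and 992 in the flox controls. All 4 floxed libraries were above the 3 Cre controls, as for Trim12a and for 4.45% of all genes. DESeq2 called Lyz2 higher in knockouts than in Cre controls (log2 1.59, adjusted p = 0.00702, beside 1.59% of all genes called higher). It called Lyz2 lower in Cre than in flox controls (log2 -2.59, adjusted p = 6.6e-07, beside 0.394% called lower). edgeR called neither difference (adjusted p = 0.252 and 0.403). The first DESeq2 call was lost without Cre control replicate 1, 2 or 3 (adjusted p = 0.0798, 0.0694 and 0.171), and the second was kept without each library in turn (adjusted p up to 0.0222). Without Lyz2 the other 9 markers summed to 20.5 and 15.4 CPM in the knockouts, 21.0, 23.7 and 28.4 CPM in the Cre controls, and 20.8 and 21.9 CPM in the flox controls. The part of leukocytes in the levels of the 4 genes was not tested. Ptprc, Itgam, Fcgr1 and Cd52 are not among the genes analysed here. Cardiomyocyte markers were abundant in all libraries, with Tnnt2 between 2395 and 3129 CPM, but knockout replicate 2 was low in several. Its Myh7 level was 1212 CPM, against 5372 to 12438 CPM in the other 6 libraries, and its Myh6 level was 573 CPM, against 1649 to 3995 CPM. The 5 endothelial and endocardial markers summed to 266 CPM in it, against 742 to 967 CPM elsewhere, and the 5 erythroid markers to 14140 CPM, against 2943 to 8006 CPM. DESeq2 called Nppa, the atrial natriuretic peptide gene, lower in knockouts than in Cre and in flox controls (adjusted p = 0.00027 and 0.00068). Over all genes DESeq2 called 4.05% and 2.21% in these comparisons, in either direction. edgeR did not call Nppa (adjusted p = 0.250 and 0.369). Leaving out any 1 Cre control ended both calls, with adjusted p from 0.0803 to 0.129, and leaving out flox control replicate 1 or 2 ended the second (adjusted p = 0.722 and 0.222). In these bulk samples fewer cells of a type and less RNA per cell cannot be told apart.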

How the data were processed

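Per the submitters' processing notes, the authors worked on the mm10 genome with STAR 2.4.2a, edgeR, featureCounts and Subread 1.5.0. Gene annotation and strand use are not given in the sources used here. Raw counts per gene for 7 libraries, with coordinates and exon length, were deposited. So were the authors' log2 fold changes of knockouts over Cre controls and their p-values, of which the p-values were not used. The lowest count of a gene summed over libraries was 9.

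Members and gene lists were chosen with earlier results of these data known. Groups came from the genotype labels. Counts were fitted with edgeR 4.0.16 in R 4.3.3 (TMM, filterByExpr, robust quasi-likelihood, all 7 libraries, a mean per group; 13695 genes tested, the 4 members among them), and with DESeq2 1.42.0 as an alternative. TMM factors scaled all CPM values, and a prior count of 2 was added for log2 CPM. Intervals are exact (Poisson for a level, Clopper-Pearson for a ratio of summed counts) at 95% and cover counting error only, and counts under 3 were set to 3 per library for bounds and gaps. Named genes were the 4 members, the 3 genes with a mean of at least 1 CPM most like each, excluding predicted genes, the nearest gene on each side, list relatives and, per other list, called members or else 3 by mean CPM. Alternatives were RLE scaling, other filters and prior counts, DESeq2, the compared groups alone and leaving out each library. Added after seeing the data were DESeq2 without single libraries, gaps of 2- and 8-fold, and edgeR with the NT identifier as a term. The labels name no litters, so p-values measure only the spread between these libraries. A gene of the interferon-stimulated list is not reported by name here.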

Additional observations from a re-analysis of the deposited data

How the results depend on the processing

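The counts of called genes moved with the tool and with single libraries. For knockouts against Cre controls edgeR called 2 genes, DESeq2 called 555 and, without knockout replicate 2, 459; leaving out each library in edgeR gave 0 to 8813 calls, the highest without knockout replicate 1 and 63 without knockout replicate 2. For knockouts against flox controls edgeR called 2 genes, 1 with RLE scaling and 0 with the compared groups alone, DESeq2 called 302 and, without knockout replicate 2, 977, and leaving out each library gave 0 to 7547 calls. For Cre against flox controls edgeR called 0 genes (428 at an unadjusted p below 0.05), 56 with the compared groups alone, DESeq2 called 73, and leaving out each library gave 0 to 57. Of the fixed-list genes, members aside, edgeR called 0 in each comparison (the unadjusted counts stand beside each list). Against Cre controls DESeq2 called 3 and, without knockout replicate 2, 4, and leaving out each library in edgeR gave 0 to 50. Against flox controls these were 10 without knockout replicate 2 and 0 to 35. Between the controls DESeq2 called 3, edgeR with the compared groups alone 2, and leaving out each library gave 0 to 2. With the NT identifier as a term, a setting chosen after seeing the data, edgeR called 0 genes in each comparison (331 at an unadjusted p below 0.05 in knockouts against Cre controls, 529 against flox controls and 248 between the controls), and so 0 fixed-list genes. Both knockouts are NT libraries and no Cre control is, so in that fit the NT term is estimated from the 2 flox controls alone. The 0 calls therefore do not show what part the identifier had. The cause of the changes in the counts of calls was not tested.

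Prior counts of 0.5 and 5 moved the log2 differences of genes at or near 0 by construction. Knockouts minus Cre controls became 6.24 and 4.52 for Ifi44, 5.98 and 3.24 for H2-T10, and 7.78 and 4.52 for Trim12a. NT minus other libraries became 5.57 and 4.13 for Ifi44 and 6.03 and 3.48 for H2-T10, and Cre minus flox controls became -8.21 and -4.93 for Trim12a. Leaving out each library in turn gave, for knockouts minus Cre controls, 4.96 to 5.83 for Ifi44, 2.70 to 5.48 for Ifi204, 3.86 to 4.86 for H2-T10 and 5.21 to 6.40 for Trim12a. For knockouts minus flox controls it gave 0.54 to 4.03, -0.79 to 3.79, -0.90 to 3.97 and -1.02 to 0.18 in the same order of genes. For Cre minus flox controls it gave -4.86 to -1.36, -4.88 to -0.30, -5.27 to -0.39 and -6.47 to -5.97, and for NT minus other libraries 4.57 to 5.22, 3.71 to 5.11, 4.26 to 4.97 and 3.70 to 5.86. The direction turned only in knockouts minus flox controls: to -0.79 for Ifi204 and -0.90 for H2-T10 without flox control replicate 1, and to 0.18 for Trim12a without knockout replicate 1.

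With a gap of 2-fold, 9 genes were higher and 17 lower in the NT libraries, and 23 higher and 11 lower in the floxed libraries; with 8-fold these were 3, 1, 1 and 0. Of all values recomputed under alternatives, 170 stayed within their spread or within 1.5 times, 73 moved further and 3 turned their direction. No paired analysis was possible because the labels give no replicate numbers shared between groups. Genes near 1 CPM rest on few counts, so differences among the low libraries were not detectable at this depth.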

Other observations

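Of the 6 genes that were higher in the NT libraries by at least 4-fold, 3 lie on chromosome 17 within 1 Mb of each other (H2-T10, Gm8801 and A930015D03Rik). Chromosome 17 held 4.87% of the 13168 genes compared for likeness. H2-T10 was chosen for this pattern, and the reads of A930015D03Rik cannot be told apart from those of the genes it overlaps. The 3 therefore cannot be counted as independent genes. The 12 genes of that size in either direction include 0 on the sex chromosomes. Hdhd3, among the genes most like Ifi44, and Alad, from the list of strain-variable genes, lie 3.78 kb apart on chromosome 4. They are thus 1 locus. Both were higher in each NT library than in any other library, a pattern of 2.08% of all genes. Hdhd3 was picked for its likeness to Ifi44, so its pattern follows from that choice.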
